A study of Homo sapiens with 35 samples.

Results

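HCT116 cells depleted of CDK8 were set directly against HCT116 cells depleted of CDK19, with the cells of each line under 5-fluorouracil (5FU) for 12 h. The comparison rests on 4 of the 35 arrays of the series, 2 for shCDK8 and 2 for shCDK19, chosen by their titles. HCT116 is an established human colorectal carcinoma cell line, and each array measured total RNA of 1 sample. The shCDK8 cells carried a short hairpin RNA against CDK8, the shCDK19 cells a hairpin against CDK19, and the shControl cells a hairpin with no target. The shControl line gave 2 arrays after 12 h of 5FU and 2 after 12 h of the solvent DMSO, which served to say which genes the drug moved. Each target was represented by 1 hairpin line, so the loss of the kinase and other properties of that line cannot be told apart. Neither knockdown line had a DMSO array, so a different level under the drug and a different response to it cannot be told apart either. The labels do not state that replicates are separate cultures, so p-values reflect the spread between arrays alone.

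CDK8 and CDK19 are closely related kinases, and they take the same place in the kinase module of Mediator, a large coactivator that carries signals from transcription factors to RNA polymerase II. 5FU is a pyrimidine analogue that blocks thymidylate synthase and is built into RNA and DNA. The resulting damage switches on genes of cell cycle arrest, death receptors and repair, while histone genes and the genes of mitosis go down as cells stop dividing. In bulk RNA, fewer cells of a kind, such as cells in mitosis, and less transcript per cell cannot be told apart.

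Levels are the deposited log2 values, and differences are log2 values ± SE from limma, shCDK8 minus shCDK19 unless stated otherwise. A gene passed the test at an adjusted p under 0.05 over 18404 genes. The replicate arrays of the 4 groups correlated with r between 0.993 (shControl DMSO) and 0.998 (shCDK19 5FU). The cells were checked against markers of colon epithelium. KRT8 was the highest of the 10 markers with a mean level of 13.3 over the knockdown arrays, and 2 of the 10 had a mean level under 7. Of the markers of fibroblasts, leukocytes and endothelium, 8 of 11, 7 of 10 and 6 of 8 had a mean level under 7. The highest members were COL1A1 (8.60), CD68 (10.29) and CLDN5 (7.92) in the same order. The mean levels of those 3 lists lay between 6.01 and 6.67 in the shCDK8 arrays and between 6.03 and 6.56 in the shCDK19 arrays.

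The hairpins' targets were read first. CDK8 is measured by a cluster shared with ADRA1B, an adrenergic receptor gene, so its values belong to that cluster. The cluster had levels of 7.93 and 8.38 in shCDK8 cells, against 10.82 and 10.85 in shCDK19 cells. In shControl cells it had 10.96 and 10.84 under 5FU and 10.43 and 10.61 in DMSO. The shCDK8 arrays were the low ones, and the difference between the lines was 6.40-fold (-2.68 ± 0.16, adjusted p = 0.0131 over all clusters). CDK19 itself had 7.83 and 7.88 in shCDK8 cells, against 6.70 and 6.57 in shCDK19 cells (1.22 ± 0.09, adjusted p = 0.00463). In shControl cells CDK19 had 7.80 and 7.62 under 5FU, and 8.47 and 8.60 in DMSO. Each hairpin's line was thus the low one for its own target, with no overlap between the lines. Of the 6 kinase module genes tested CDK19 was the 1 that passed, and of 24 core Mediator subunits 1 passed, MED27, which was higher in shCDK8 cells (0.48 ± 0.08). The share of all genes that passed was 5.14%.

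Across all genes, 409 had a higher level in the shCDK8 line (2.22% of those tested) and 537 a lower one (2.92%), so that 946 (5.14%) differed in either direction. The difference was at least 2-fold for 50 of the higher and 62 of the lower genes. The count moved with single arrays: it was 158 or 115 without shCDK8 replicate 1 or 2, 46 or 40 without shCDK19 replicate 1 or 2, 367 without either shControl 5FU array and 1479 without either DMSO array. Leaving out a shControl array changed the shared estimate of the spread, not the difference between the lines. With each array's median subtracted, the split was 715 higher and 629 lower. Against shControl cells under 5FU, shCDK8 cells had higher levels of 293 genes (1.59%) and lower levels of 352 (1.91%), and shCDK19 cells higher levels of 106 (0.576%) and lower levels of 48 (0.261%). These last comparisons share the shControl arrays.

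The drug response of shControl cells was the yardstick for which line kept it. 5FU raised 1320 genes (7.17%) and lowered 789 (4.29%) in shControl cells, and this comparison shares no array with the comparison of the knockdown lines. Among the 120 genes raised at least 2-fold, 6 were higher in shCDK8 than in shCDK19 cells (5%) and 19 were lower (15.8%). Among the 69 genes lowered at least 2-fold, 11 were higher (15.9%) and 2 lower (2.9%). The median difference between the lines was -0.17 over the raised genes and 0.20 over the lowered genes, against 0.01 over all genes.

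Set against the DMSO mean of shControl cells, the raised genes had medians of 1.07 and 1.07 on the shCDK8 arrays and of 1.27 and 1.33 on the shCDK19 arrays. The shControl 5FU arrays, on which these genes were chosen, had medians of 1.24 and 1.17. For the lowered genes the medians were -1.17 and -0.95 in shCDK8 cells, against -1.19 and -1.25 in shCDK19 cells, with -1.21 and -1.27 in shControl cells under 5FU. The shCDK8 arrays were nearer to the DMSO level than the shCDK19 arrays in each set, although by little for shCDK8 replicate 1 in the lowered set. With the sign of each gene turned along the drug response, the median difference over all 189 genes was -0.19. This value belongs to genes with a large response: over all 2109 responding genes, with no minimum fold, the median was 0.0058. Samples of the knockdown lines in DMSO were not analysed here.

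**Figure D1:**
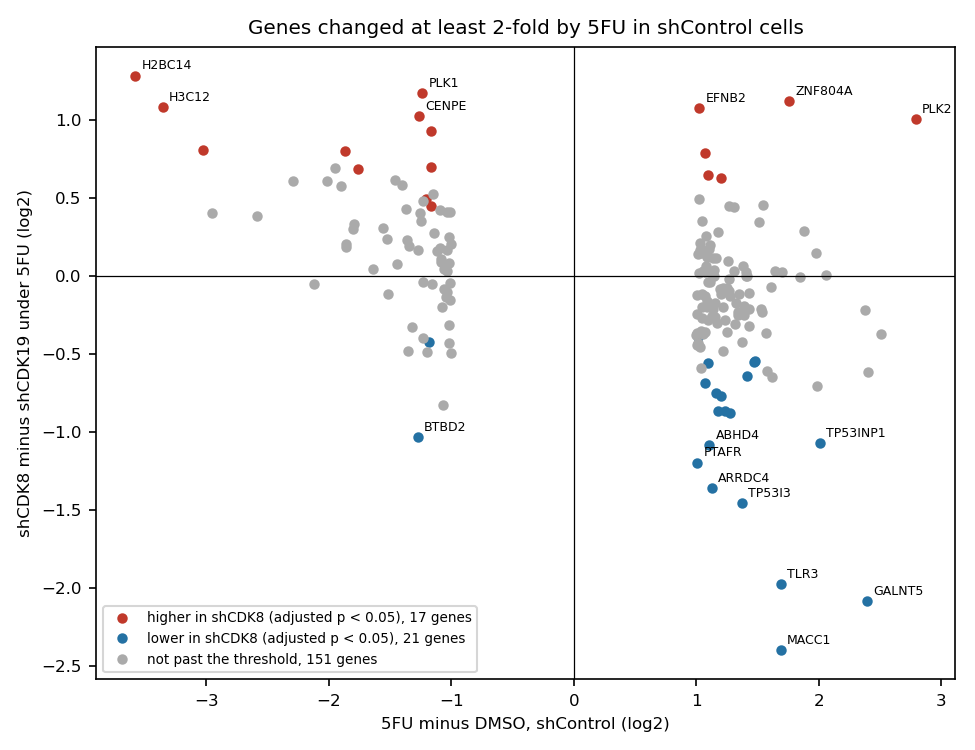
Genes changed at least 2-fold by 5FU in shControl cells. Each point is 1 of 189 genes, with 5FU minus DMSO in shControl cells on the horizontal axis (log2) and shCDK8 minus shCDK19 under 5FU on the vertical axis (log2). Of the raised genes on the right, 19 were lower and 6 higher in shCDK8 cells, and of the lowered genes on the left, 2 were lower and 11 higher.

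The raised genes that were lower in shCDK8 cells were led by MACC1, an activator of growth factor receptor signalling known from colon cancer. MACC1 had levels of 7.93 and 7.74 in shCDK8 cells, against 10.24 and 10.22 in shCDK19 cells. In shControl cells MACC1 had 10.13 and 10.00 under 5FU, and 8.29 and 8.46 in DMSO. The shCDK8 arrays were thus below the DMSO arrays, while the shCDK19 arrays were above the shControl 5FU arrays (-2.40 ± 0.09, adjusted p = 0.000919). GALNT5, an enzyme that starts O-linked glycosylation, had 8.86 and 8.47 in shCDK8 cells, against 10.73 and 10.76 in shCDK19 cells. In shControl cells GALNT5 had 10.24 and 10.20 under 5FU, and 7.75 and 7.89 in DMSO. The shCDK8 arrays lay between the DMSO and the 5FU levels of shControl cells (-2.08 ± 0.13, adjusted p = 0.00306). TLR3, the sensor of double-stranded RNA, had 7.95 and 8.0 in shCDK8 cells, against 9.94 and 9.95 in shCDK19 cells. In shControl cells TLR3 had 9.02 and 8.79 under 5FU, and 7.10 and 7.32 in DMSO. Here the shControl 5FU arrays fell between the knockdown lines, and TLR3 was lower than in shControl cells in the shCDK8 line (-0.93, adjusted p = 0.014) and higher in the shCDK19 line (1.05, adjusted p = 0.021).

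Other raised genes that were lower in shCDK8 cells were the arrestin family gene ARRDC4 (-1.36 ± 0.16), the receptor for platelet-activating factor PTAFR (-1.20 ± 0.11), the smooth muscle actin gene ACTA2 (-0.77 ± 0.09), the epidermal transcription factor GRHL3 (-0.64 ± 0.09) and the urokinase gene PLAU (-0.39 ± 0.07). In normal growth the lines differed by -1.38 for ARRDC4, -0.16 for PTAFR, 0.32 for ACTA2, 0.35 for GRHL3 and 0.74 for PLAU. The difference of ARRDC4 was thus of like size without the drug. The raised genes that were higher in shCDK8 cells included the ligand gene EFNB2, the phosphatase gene DUSP1 and the glucose transporter gene SLC2A3. DUSP1, which switches off MAP kinases, had 10.05 and 10.34 in shCDK8 cells, against 9.41 and 9.41 in shCDK19 cells. In shControl cells DUSP1 had 10.49 and 10.37 under 5FU, and 9.34 and 9.38 in DMSO. For DUSP1 it was the shCDK19 line that lay at the DMSO level (0.79 ± 0.10, adjusted p = 0.0181). The zinc finger gene ZNF804A had 9.51 and 9.45 in shCDK8 cells, against 8.30 and 8.42 in shCDK19 cells. In shControl cells ZNF804A had 9.46 and 9.30 under 5FU, and 7.71 and 7.55 in DMSO, so the shCDK19 arrays lay between the shControl levels.

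Of the targets of the DNA damage response, 43 of 46 listed genes were tested, and 33 of them rose and 0 fell in shControl cells under 5FU, with a median of 1.09. Between the lines 9 of the 43 were lower and 2 higher in shCDK8 cells, with a median of -0.23 against 0.01 over all genes, and 34 of 43 had a negative difference. Over all genes 2.92% were lower and 2.22% higher, and 8784 of 18404 had a negative difference. Without either array of shCDK8 or of shCDK19 1 member was lower, and without either DMSO array 14 were. Set beside shControl cells under 5FU, the shCDK8 line had 2 members higher and 4 lower (median -0.14) and the shCDK19 line 2 higher and 0 lower (median 0.14).

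Among arrest and feedback genes, the cyclin-dependent kinase inhibitor gene CDKN1A had 11.58 and 11.52 in shCDK8 cells, against 11.90 and 11.84 in shCDK19 cells. In shControl cells CDKN1A had 11.23 and 11.36 under 5FU, and 9.86 and 9.87 in DMSO. Both knockdown lines were above the DMSO level, and their difference missed the threshold (-0.32 ± 0.06, adjusted p = 0.0504). MDM2, the ubiquitin ligase of the feedback loop, had 12.45 and 12.25 in shCDK8 cells, against 12.71 and 12.69 in shCDK19 cells (-0.35 ± 0.08, adjusted p = 0.0822). TP53INP1, a stress-induced gene of arrest and autophagy, had 9.73 and 9.48 in shCDK8 cells, against 10.61 and 10.74 in shCDK19 cells. In shControl cells TP53INP1 had 10.44 and 10.46 under 5FU, and 8.19 and 8.69 in DMSO. The shCDK8 arrays again lay between the DMSO and 5FU levels (-1.07 ± 0.17, adjusted p = 0.0313). GDF15, a secreted stress cytokine, was lower as well (-0.55 ± 0.11, adjusted p = 0.0494). PLK2, a polo-like kinase gene raised by stress, went the other way with 12.22 and 12.12 in shCDK8 cells, against 11.19 and 11.14 in shCDK19 cells. In shControl cells PLK2 had 11.16 and 11.25 under 5FU, and 8.22 and 8.61 in DMSO, so that the shCDK8 arrays were above all others (1.00 ± 0.13, adjusted p = 0.0188).

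Among death genes, the death receptor FAS had 10.44 and 10.23 in shCDK8 cells, against 10.67 and 10.74 in shCDK19 cells, and its difference did not pass (-0.37 ± 0.11, adjusted p = 0.128). In shControl cells FAS had 10.60 and 10.63 under 5FU, and 7.98 and 8.22 in DMSO. The difference of the TRAIL receptor TNFRSF10B was -0.19 ± 0.07 (adjusted p = 0.227). BAX, which permeabilises mitochondria, was lower in shCDK8 cells (-0.36 ± 0.06, adjusted p = 0.0329), as was the membrane protein gene PERP (-0.44 ± 0.07, adjusted p = 0.0281). EDA2R, a receptor of the TNF family, had 7.62 and 7.58 in shCDK8 cells, against 6.29 and 6.01 in shCDK19 cells. In shControl cells EDA2R had 6.25 and 6.29 under 5FU, and 6.18 and 6.13 in DMSO, so the high shCDK8 level (1.45 ± 0.10, adjusted p = 0.00359) stood on a gene that did not pass the test for the drug in shControl cells (0.11, adjusted p = 0.53). Of 22 other apoptosis genes, 1 was higher, the inhibitor BCL2 (0.39 ± 0.06), and 3 were lower: APAF1, which builds the apoptosome (-0.59 ± 0.11), the initiator caspase CASP8 (-0.52 ± 0.08) and the inhibitor MCL1 (-0.32 ± 0.06). The shares over all genes were 2.22% higher and 2.92% lower.

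Among redox, repair and nucleotide genes, the quinone oxidoreductase gene TP53I3 had 8.80 and 8.83 in shCDK8 cells, against 10.24 and 10.29 in shCDK19 cells. In shControl cells TP53I3 had 9.23 and 9.22 under 5FU, and 7.75 and 7.96 in DMSO. Its difference of -1.45 ± 0.08 (adjusted p = 0.00206) had the shCDK19 arrays above shControl (1.04, adjusted p = 0.013) and the shCDK8 arrays below it (-0.41, adjusted p = 0.058). RRM2B, a subunit of ribonucleotide reductase for repair, was lower in shCDK8 cells (-0.59 ± 0.07, adjusted p = 0.0132). The translesion polymerase POLH (0.12 ± 0.09) and the glycolytic regulator TIGAR (0.00 ± 0.13) had differences that did not pass. TIGAR had 10.13 and 10.01 in shCDK8 cells, against 10.04 and 10.09 in shCDK19 cells, so the lines overlapped there.

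Genes that handle fluoropyrimidines were compared because they set what the drug can do. Of 24 tested, 2 passed, 1 in each direction, beside 5.14% of all genes. TYMS, the thymidylate synthase that 5FU blocks, had 12.43 and 12.38 in shCDK8 cells, against 12.35 and 12.37 in shCDK19 cells (0.04 ± 0.05, adjusted p = 0.781). MBD4, a glycosylase that removes thymine and uracil analogues from mismatches, had 9.67 and 9.60 in shCDK8 cells, against 8.33 and 8.36 in shCDK19 cells. In shControl cells MBD4 had 9.47 and 9.38 under 5FU, and 8.79 and 9.06 in DMSO, so the shCDK19 arrays were the ones that stood apart (1.29 ± 0.10, adjusted p = 0.00501). CDA, cytidine deaminase, was lower in shCDK8 cells (-0.41 ± 0.06, adjusted p = 0.0274).

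Of 60 listed mitosis genes 59 were tested, and 28 of them were higher and 0 lower in shCDK8 cells, with a median of 0.39 and a positive difference for 56 of 59. Over all genes 2.22% were higher and 2.92% lower, and 9609 of 18404 had a positive difference. In shControl cells 5FU lowered 33 of the 59 and raised 1, with a median of -0.52. Relative to shControl DMSO the list had a median of -0.23 in shCDK8 cells, against -0.60 in shCDK19 cells. Against shControl cells under 5FU, 9 members were higher and 0 lower in the shCDK8 line (median 0.26), and 0 passed in either direction in the shCDK19 line (median -0.17). The count of 28 was 3 without either shCDK8 array, 1 without either shCDK19 array, 8 without either shControl 5FU array, 34 without either DMSO array and 11 with the 4 knockdown arrays alone.

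The kinase PLK1, which drives mitotic entry and spindle assembly, had 12.19 and 12.27 in shCDK8 cells, against 11.03 and 11.10 in shCDK19 cells. In shControl cells PLK1 had 11.33 and 11.22 under 5FU, and 12.51 and 12.51 in DMSO. The shCDK8 arrays lay close under the DMSO level and the shCDK19 arrays under the shControl 5FU level (1.17 ± 0.06, adjusted p = 0.00206). The kinetochore motor CENPE had 8.08 and 8.13 in shCDK8 cells, against 7.01 and 7.15 in shCDK19 cells (1.03 ± 0.10, adjusted p = 0.0101). In shControl cells CENPE had 7.49 and 7.53 under 5FU, and 8.64 and 8.92 in DMSO. The spindle kinase AURKA had 10.06 and 10.27 in shCDK8 cells, against 9.25 and 9.23 in shCDK19 cells (0.93 ± 0.08, adjusted p = 0.00689). In shControl cells AURKA had 9.25 and 9.25 under 5FU, and 10.37 and 10.46 in DMSO. For AURKA the shCDK19 arrays stood at the shControl 5FU level and the shCDK8 arrays near the DMSO level.

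Cyclin B1, encoded by CCNB1, had 10.69 and 10.80 in shCDK8 cells, against 9.96 and 9.76 in shCDK19 cells (0.89 ± 0.10, adjusted p = 0.0124). In shControl cells CCNB1 had 10.22 and 10.09 under 5FU, and 10.72 and 10.86 in DMSO. The shCDK8 arrays were thus close to the DMSO arrays. GTSE1 (0.82 ± 0.10) and the checkpoint kinases BUB1B (0.70 ± 0.05) and BUB1 (0.67 ± 0.09) were higher too. The 3 members with a negative difference were CDC25C, the phosphatase that activates CDK1 (-0.44 ± 0.20), CDK1 itself (-0.15 ± 0.10) and HMMR (-0.09 ± 0.20), and none of these passed.

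**Figure D2:**
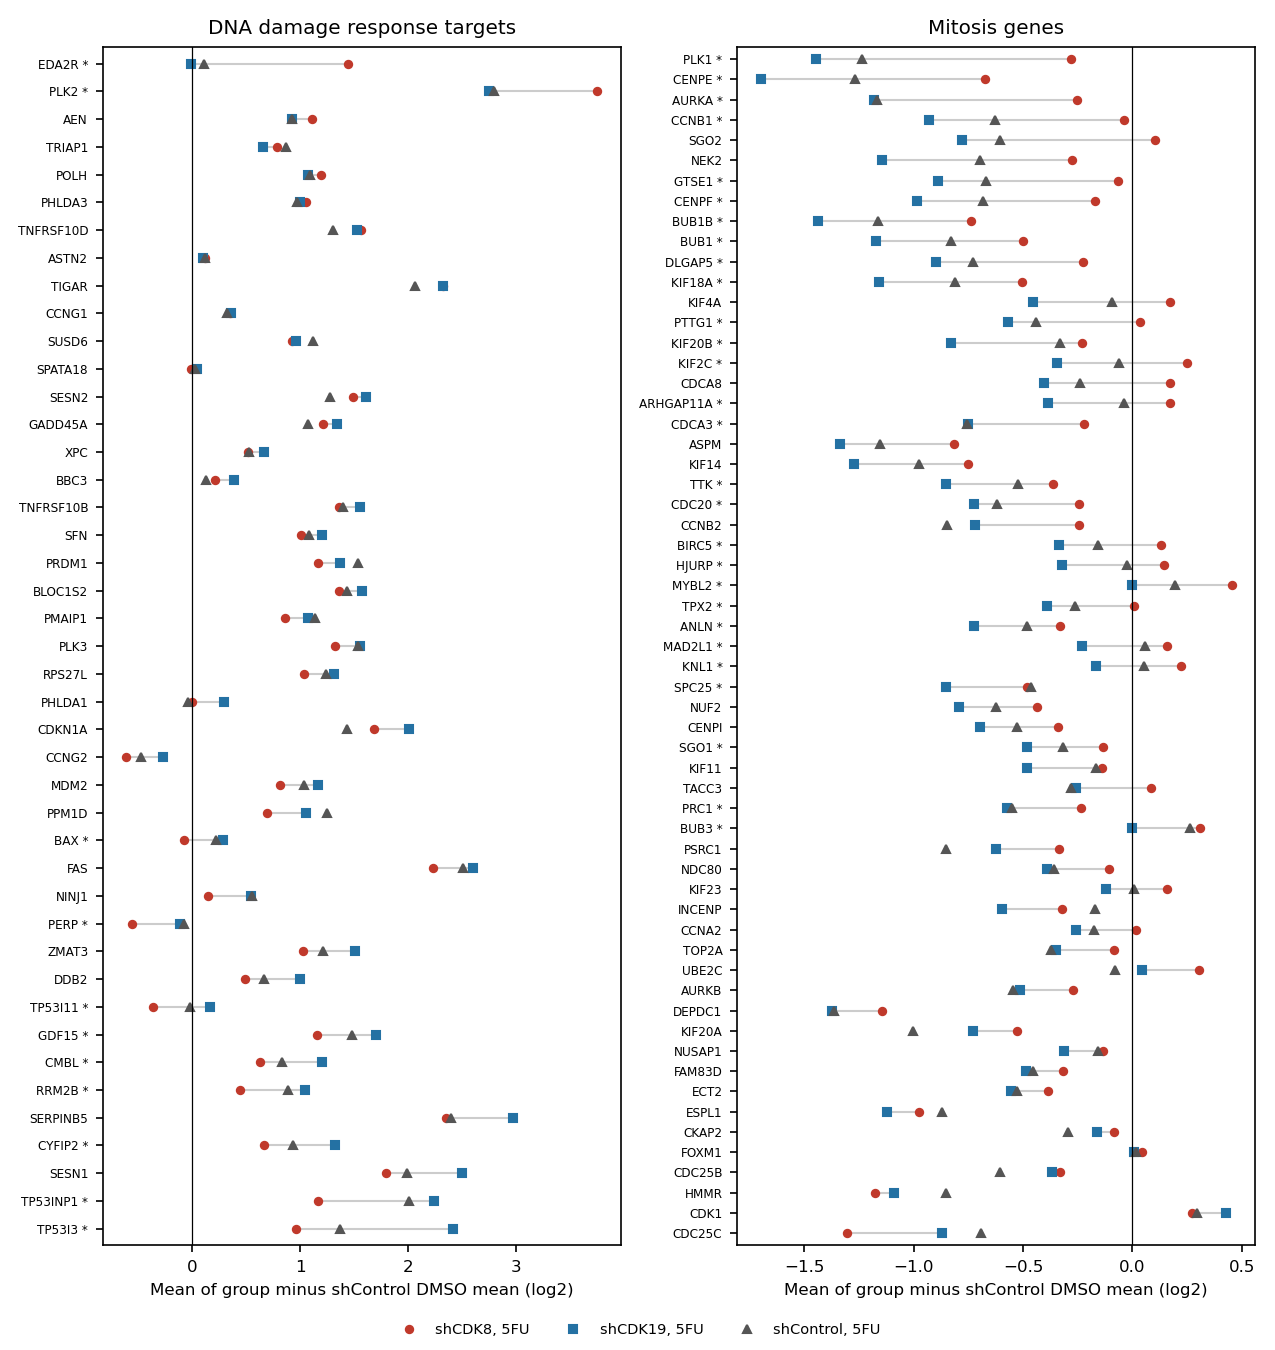
Members of the DNA damage response targets (left) and the mitosis genes (right). Each row is a gene, ordered by shCDK8 minus shCDK19, and points give the mean of shCDK8, shCDK19 and shControl cells under 5FU (2 arrays each) minus the shControl DMSO mean (log2); asterisks mark genes that differed between the knockdown lines. The shCDK8 points lie left of the shCDK19 points for 34 of 43 damage response targets and right of them for 56 of 59 mitosis genes.

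Since 28 mitosis genes were higher in shCDK8 cells, the promoters of the 4 with the largest difference that have an entry in the RefSeq promoter table (GRCh38.p14) are shown, each from 150 bases before to 30 bases after the annotated start, 5′ to 3′ on the gene's strand. Many promoters of this class carry the letters TTTGAA (the cell cycle genes homology region) near the start and CCAAT boxes before it. Each was searched on both strands, neither motif holds the other, and matches are in capitals.
PLK1, chr16:23678739-23678918, plus strand: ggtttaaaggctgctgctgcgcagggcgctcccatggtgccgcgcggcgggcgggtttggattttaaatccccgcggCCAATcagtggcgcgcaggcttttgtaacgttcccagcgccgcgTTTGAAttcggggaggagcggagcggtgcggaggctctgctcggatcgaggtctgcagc
CENPE, chr4:103198314-103198493, minus strand: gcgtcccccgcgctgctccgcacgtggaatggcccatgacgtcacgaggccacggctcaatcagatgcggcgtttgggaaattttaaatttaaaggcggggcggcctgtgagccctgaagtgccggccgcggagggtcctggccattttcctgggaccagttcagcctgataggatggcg
CCNB1, chr5:69167000-69167179, plus strand: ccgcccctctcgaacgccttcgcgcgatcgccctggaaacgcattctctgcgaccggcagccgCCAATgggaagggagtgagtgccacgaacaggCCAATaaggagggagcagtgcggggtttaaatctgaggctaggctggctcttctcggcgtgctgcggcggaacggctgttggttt
GTSE1, chr22:46296720-46296899, plus strand: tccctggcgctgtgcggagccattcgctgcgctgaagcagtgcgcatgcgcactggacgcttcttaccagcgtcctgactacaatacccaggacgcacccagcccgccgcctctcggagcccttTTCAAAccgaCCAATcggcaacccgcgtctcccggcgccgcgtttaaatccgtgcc
PLK1 and GTSE1 held 1 TTTGAA and 1 CCAAT each, the TTTGAA of GTSE1 lying on the other strand, CCNB1 held 2 CCAAT and 0 TTTGAA, and the CENPE window held neither.

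Over the same window, TTTGAA was found in 28 of 50 mitosis genes with a promoter entry (56%), against 6.34% of the 14230 tested genes with one, and CCAAT in 70% against 27.8%. Among mitosis genes higher in shCDK8 cells TTTGAA was found in 13 of 22 (59.1%), close to the share of the whole list. Among all genes higher in shCDK8 cells 10.2% held TTTGAA (34 of 332), and among those lower 3.68%. The 34 include the 13 mitosis genes. These matches describe the letters of the windows only.

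Replication-dependent histone genes, whose transcripts are made in S phase, were among the genes that 5FU lowered most in shControl cells. Of 49 tested, 37 fell and 0 rose there (median -0.97), and between the knockdown lines 8 had higher levels in shCDK8 cells and 0 lower ones (median 0.20). Between the lines, 2.22% of all genes were higher and 2.92% lower. H2BC14 had 11.44 and 11.71 in shCDK8 cells, against 10.25 and 10.33 in shCDK19 cells (1.28 ± 0.10, adjusted p = 0.00501). In shControl cells H2BC14 had 10.17 and 10.20 under 5FU, and 13.81 and 13.72 in DMSO, so the shCDK8 arrays stood above the other 5FU arrays but far below the DMSO arrays. H3C12 (1.08 ± 0.16), H2AC15 (0.81 ± 0.08) and H4C2 (0.80 ± 0.14) were also higher. Histone genes are near-identical in sequence, so probes may be shared between them and the single members are uncertain.

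Of 44 genes of S phase and DNA replication, 4 were higher in shCDK8 cells, among them the polymerase subunit POLE2 (0.51 ± 0.09) and the helicase subunit MCM3 (0.50 ± 0.07), and 2 were lower, among them the histone chaperone ASF1B (-0.42 ± 0.05), with a median of 0.12. POLE2 had 9.46 and 9.58 in shCDK8 cells, against 8.99 and 9.03 in shCDK19 cells, with 9.63 and 9.42 in shControl cells under 5FU and 9.51 and 9.53 in DMSO. For POLE2 it was the shCDK19 arrays that stood apart. Of the G1 cyclins, kinases and inhibitors 1 of 25 passed, the transcription factor E2F2, which was lower (-0.39 ± 0.05). Of the repair and damage signalling genes 1 of 35 passed, FANCI of the Fanconi pathway, which was higher (0.46 ± 0.08). With 2.22% of all genes higher and 2.92% lower, the G1 and repair counts were near these shares.

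Immediate early and growth factor response genes, which mark signalling through MAP kinases and serum response factor, had 7 higher and 3 lower members in shCDK8 cells among 41 tested, with a median of 0.20. The shares over all genes were 2.22% higher and 2.92% lower. FOSB, a partner in the AP-1 factor, had 9.06 and 9.94 in shCDK8 cells, against 8.02 and 8.03 in shCDK19 cells (1.47 ± 0.29, adjusted p = 0.0493). FOS had 9.28 and 10.49 in shCDK8 cells, against 8.14 and 8.09 in shCDK19 cells, and missed the threshold (1.77 ± 0.38, adjusted p = 0.0624). The shCDK8 replicates lay far apart for FOSB and FOS, with replicate 2 the higher one. EGR3, an early growth response factor (1.16 ± 0.21), KLF4, a factor of epithelial differentiation (1.12 ± 0.12), and DUSP4, a phosphatase of MAP kinases (0.39 ± 0.05), were higher. The growth factor gene EREG (-0.42 ± 0.07) and JUND (-0.32 ± 0.05) were lower. MCL1, given above among the apoptosis genes, is the third lower member.

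**Figure D3:**
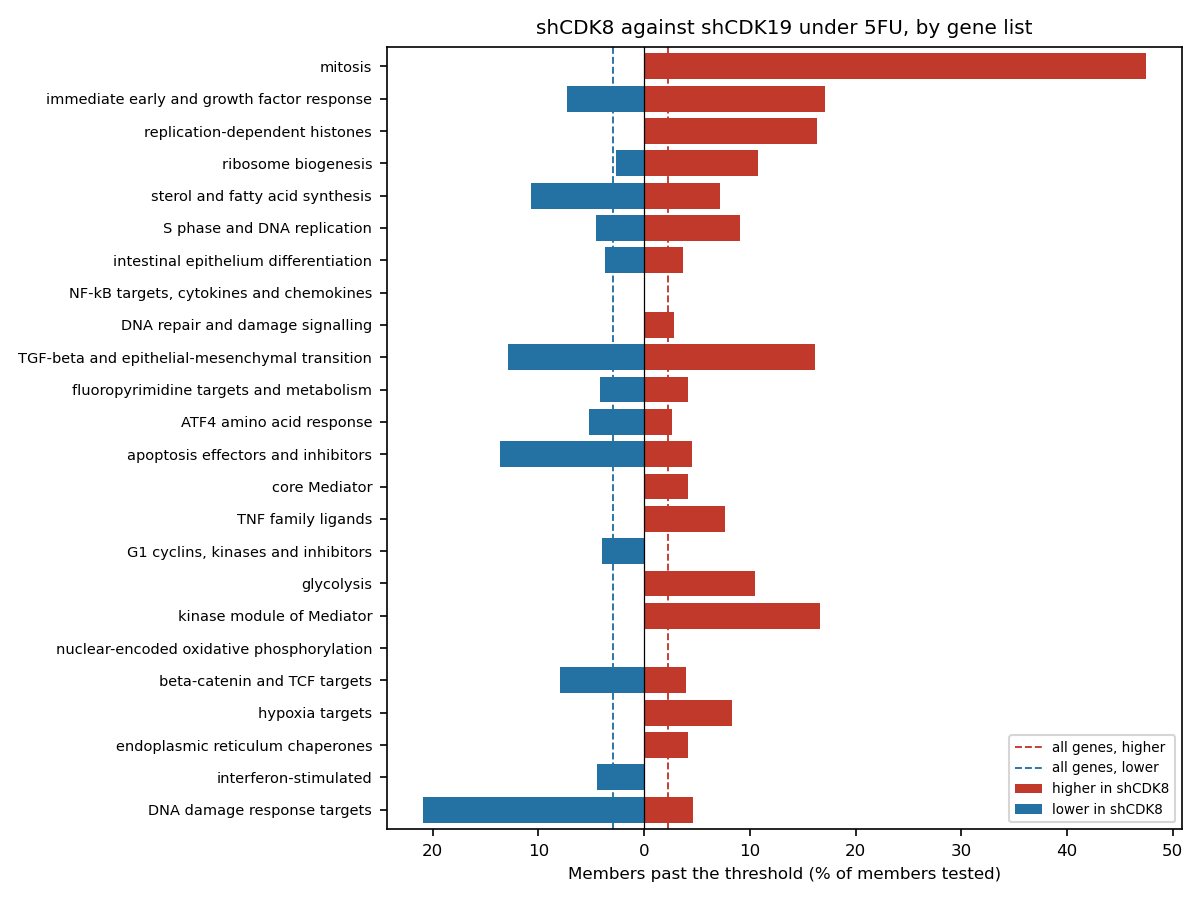
Share of each gene list, cell type markers left out, that differed between shCDK8 and shCDK19 cells under 5FU, in percent of members tested, with members higher in shCDK8 to the right and lower to the left. Dashed lines mark the shares over all genes, 2.22% higher and 2.92% lower, and of the lists plotted the mitosis genes have the longest bar to the right (28 of 59) and the DNA damage response targets the longest to the left (9 of 43).

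Of the 30 genes with the largest differences, 15 in each direction, 8 passed the test for 5FU in shControl cells. Of all genes, 7.17% passed it with a higher level under 5FU and 4.29% with a lower one. TM4SF18, a gene of a membrane protein, had 10.78 and 10.76 in shCDK8 cells, against 5.77 and 5.76 in shCDK19 cells (5.00 ± 0.14, 32.1-fold, adjusted p = 0.000373). In shControl cells TM4SF18 had 5.99 and 5.63 under 5FU, and 5.57 and 5.82 in DMSO. Only the shCDK8 arrays were high for TM4SF18 among these 8. TNFSF4, the OX40 ligand, had 8.70 and 8.84 in shCDK8 cells, against 5.44 and 5.22 in shCDK19 cells (3.44 ± 0.11, 10.9-fold, adjusted p = 0.000563). The guidance cue SEMA3A had 11.64 and 11.61 in shCDK8 cells, against 8.94 and 9.03 in shCDK19 cells (2.64 ± 0.15, adjusted p = 0.00226). In shControl cells SEMA3A had 8.14 and 7.74 under 5FU, and 7.27 and 7.50 in DMSO, and the shCDK8 line was the highest of the groups for both genes.

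The growth factor TGFB2 had 9.29 and 9.21 in shCDK8 cells, against 6.92 and 7.06 in shCDK19 cells (2.26 ± 0.10, adjusted p = 0.00104). The organic anion transporter SLCO3A1 (2.35 ± 0.10), the ERBB ligand NRG1 (1.74 ± 0.06), the calcium-dependent kinase gene CAMK2D (1.65 ± 0.16), the metalloprotease ADAM19 (1.63 ± 0.09) and the actin-like gene ACTL8 (1.61 ± 0.16) were also higher. The ligand WNT16 had 10.98 and 11.06 in shCDK8 cells, against 9.35 and 9.48 in shCDK19 cells (1.61 ± 0.08, adjusted p = 0.0018). In shControl cells WNT16 had 10.13 and 10.02 under 5FU, and 10.91 and 11.05 in DMSO, and the shCDK8 arrays were at the DMSO level. The smooth muscle gene TAGLN (1.59 ± 0.08) was above shControl in the shCDK8 line (0.69, adjusted p = 0.014) and below it in the shCDK19 line (-0.90, adjusted p = 0.014). The small nuclear RNA genes RNVU1-3 (2.15 ± 0.10), RNU5D-1 (1.82 ± 0.19) and RNVU1-4 (1.70 ± 0.15) belong to families of near-identical copies, so their single values are uncertain.

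At the other end, NFIB, a transcription factor of the nuclear factor I family, had 5.82 and 6.01 in shCDK8 cells, against 9.84 and 9.90 in shCDK19 cells (-3.95 ± 0.09, 15.5-fold, adjusted p = 0.000373). In shControl cells NFIB had 8.67 and 8.51 under 5FU, and 8.73 and 8.82 in DMSO. The lines thus lay on opposite sides of shControl, with -2.68 for shCDK8 (adjusted p = 0.00046) and 1.28 for shCDK19 (adjusted p = 0.013). The fatty acid hydroxylase CYP4F11 had 7.25 and 6.76 in shCDK8 cells, against 10.18 and 10.10 in shCDK19 cells (-3.13 ± 0.19, adjusted p = 0.00273). The amino acid transporter SLC38A5 had 6.60 and 6.31 in shCDK8 cells, against 9.49 and 9.43 in shCDK19 cells (-3.01 ± 0.10, adjusted p = 0.000563). For CYP4F11 and SLC38A5 the shCDK8 arrays were below the arrays of the other groups.

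AFF4, the scaffold of the super elongation complex, had 8.22 and 8.20 in shCDK8 cells, against 10.19 and 10.34 in shCDK19 cells (-2.06 ± 0.12, adjusted p = 0.00257). In shControl cells AFF4 had 10.36 and 10.33 under 5FU, and 9.80 and 10.16 in DMSO. The polarity scaffold MPP7 (-2.18 ± 0.13), the ubiquitin ligase TRIM38 (-2.18 ± 0.24), the kinase ARAF of the MAP kinase pathway (-1.85 ± 0.07), the vesicle coat gene SEC31A (-1.85 ± 0.05) and the zinc finger gene ZNF566 (-2.05 ± 0.17) were lower as well. EHF, an epithelial ETS factor, was high in both lines: it had 8.74 and 8.65 in shCDK8 cells, against 10.72 and 10.84 in shCDK19 cells (-2.09 ± 0.14, adjusted p = 0.00377). In shControl cells EHF had 5.98 and 5.88 under 5FU, and 5.94 and 5.53 in DMSO. The adhesion receptor ADGRF1 had the same order, with 7.77 and 7.80 in shCDK8 cells, against 9.60 and 9.76 in shCDK19 cells, and 7.05 and 6.90 in shControl cells under 5FU. The zinc finger gene ZNF91 had 4.67 and 4.69 in shCDK8 cells, against 6.24 and 6.77 in shCDK19 cells, and 4.73 and 4.61 in shControl cells under 5FU, so it was a gene of the shCDK19 line.

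**Figure D4:**
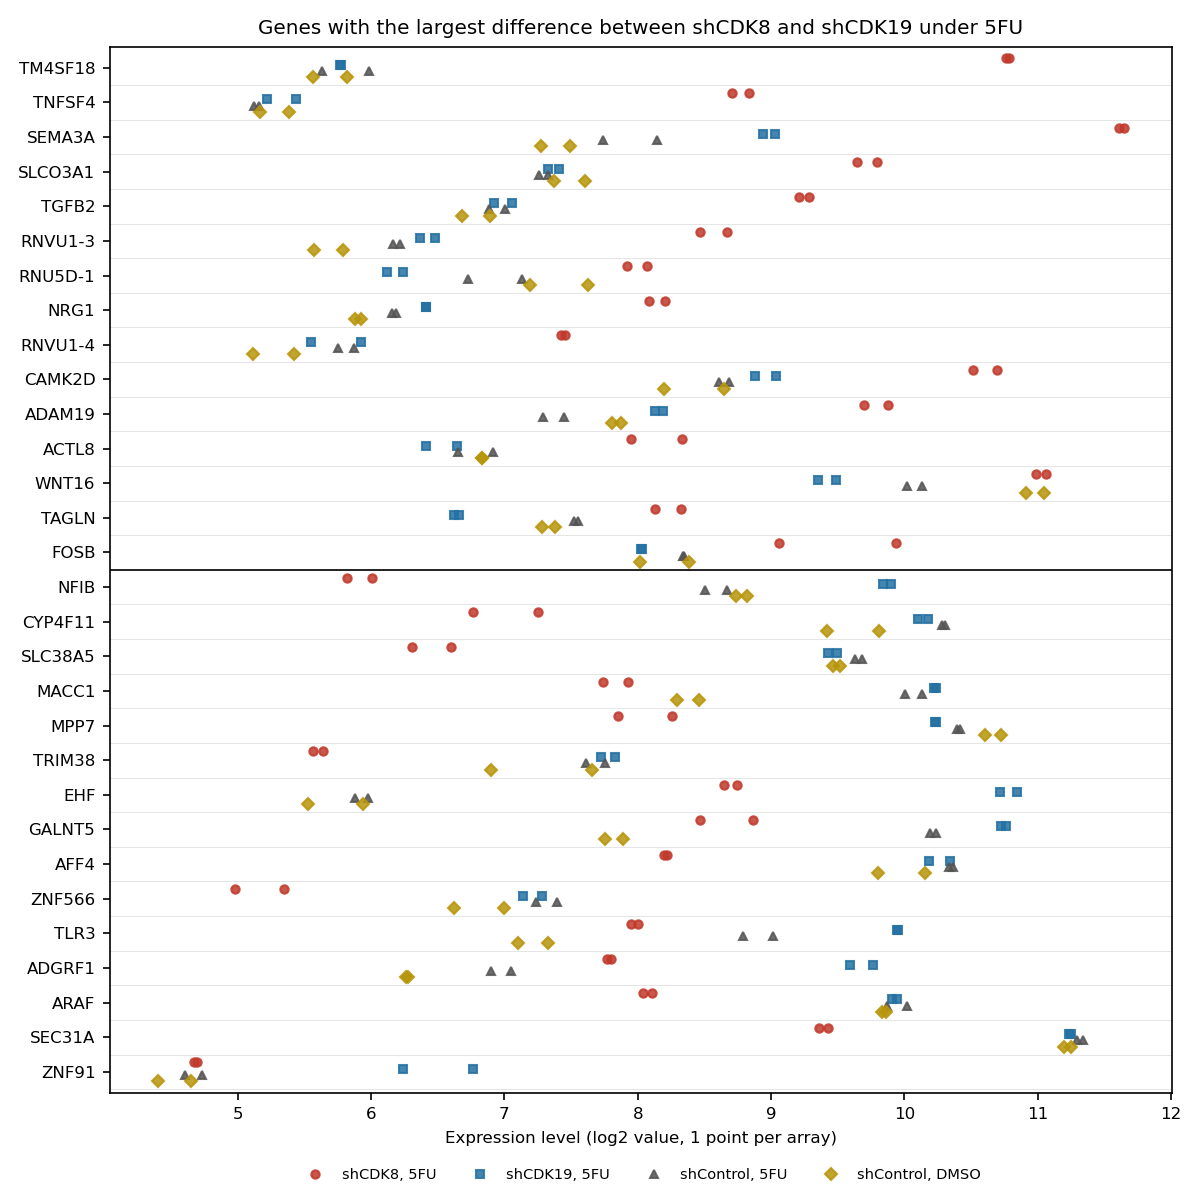
Levels (log2) on all 8 arrays of the 5FU experiment for the 15 higher and, under the black line, the 15 lower genes with the largest difference between shCDK8 and shCDK19 cells. Each point is 1 array; the shCDK8 and shCDK19 points do not overlap for any of these genes, which the choice of the genes fixes, and the shCDK19 points lie near shControl for TM4SF18, SLCO3A1 and ARAF but above it for NFIB, EHF, ADGRF1 and ZNF91.

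Of the 10 markers of colon epithelium 5 were lower in shCDK8 cells and 0 higher, beside 2.92% and 2.22% of all genes. CLDN4, a tight junction claudin, had 9.30 and 9.45 in shCDK8 cells, against 10.95 and 10.97 in shCDK19 cells (-1.59 ± 0.08, adjusted p = 0.00163). In shControl cells CLDN4 had 10.71 and 10.67 under 5FU, and 10.47 and 10.34 in DMSO, so the shCDK8 arrays were the low ones. CLDN7 (-0.86 ± 0.07), the adhesion gene CDH1, which encodes E-cadherin (-0.82 ± 0.11), the keratin KRT19 (-0.80 ± 0.10) and EPCAM (-0.40 ± 0.07) were lower too. KRT8 (0.08 ± 0.07) and KRT18 (0.21 ± 0.07) had differences that did not pass.

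Among 31 genes of the TGF-beta pathway and of epithelial-mesenchymal transition, 5 were higher and 4 lower in shCDK8 cells. The shares over all genes were 2.22% and 2.92% in the same order. The transcriptional repressors of epithelial genes SNAI2 (1.06 ± 0.15), ZEB1 (0.85 ± 0.07) and TWIST1 (0.42 ± 0.07) were higher, with the intermediate filament gene VIM (0.44 ± 0.08) and TGFB2. SNAI2 had 8.82 and 8.88 in shCDK8 cells, against 7.84 and 7.75 in shCDK19 cells, and 7.39 and 7.09 in shControl cells under 5FU. The lower members were CDH1, the receptor TGFBR2 (-0.73 ± 0.11) and the helix-loop-helix inhibitors ID3 (-0.80 ± 0.08) and ID2 (-0.56 ± 0.10). Of the fibroblast markers 0 of 11 passed by limma, and the unadjusted p was under 0.05 for 0 higher and 1 lower members.

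Of 25 targets of beta-catenin and TCF, 1 was higher, the growth factor BMP4, with 12.28 and 12.24 in shCDK8 cells, against 11.05 and 11.03 in shCDK19 cells (1.22 ± 0.06, adjusted p = 0.00198). The receptor EPHB3 (-0.57 ± 0.05) and the factor TCF7L2 (-0.34 ± 0.05) were lower. For the lists of this paragraph, the shares over all genes were 2.22% higher and 2.92% lower. Sterol and fatty acid genes were mixed, with 2 of 28 higher, among them the desaturase SCD (0.46 ± 0.06), and 3 lower: the desaturase FADS1 (-0.55 ± 0.08), the squalene epoxidase SQLE (-0.51 ± 0.09) and the elongase ELOVL6 (-0.45 ± 0.07). Of the ATF4 targets 1 of 38 was higher, HERPUD1 (0.61 ± 0.09), and 2 were lower, the asparagine synthetase ASNS (-0.55 ± 0.06) and the serine hydroxymethyltransferase SHMT2 (-0.51 ± 0.08). ASNS had 9.45 and 9.57 in shCDK8 cells, against 10.06 and 10.06 in shCDK19 cells, and 9.29 and 9.23 in shControl cells under 5FU, so the shCDK19 arrays were the high ones.

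Of 37 genes of ribosome biogenesis, 4 were higher, led by RRP9 (0.53 ± 0.10), and 1 was lower. Of the glycolysis genes 2 of 19 were higher, the glucose transporters SLC2A3 (0.65 ± 0.11) and SLC2A1 (0.31 ± 0.05), which are also the 2 of 24 hypoxia targets that were higher. Of the chaperones and other genes of the endoplasmic reticulum 1 of 24 was higher, XBP1 (0.60 ± 0.09). Of 45 genes stimulated by interferon, 2 passed with lower levels, B2M (-0.37 ± 0.07) and IFIH1 (-0.36 ± 0.07). The background for these lists was 2.22% of all genes higher and 2.92% lower, and the interferon count was near it. Of 26 NF-kB targets and of 36 oxidative phosphorylation genes 0 passed by limma, where the unadjusted p was under 0.05 for 2 higher and 0 lower members and for 3 higher and 3 lower ones.

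The difference between the lines was then set against the same difference in normal growth, where each line had 3 arrays. Treatment and experiment cannot be told apart in this comparison, since each condition was its own experiment. In normal growth shCDK8 cells had higher levels of 2491 genes (13.5%) and lower levels of 2637 (14.3%). The difference under 5FU was higher than in normal growth for 1676 genes (9.11%) and lower for 1745 (9.48%). Of the 946 genes that differed under 5FU, 585 had a difference that itself differed between the conditions. In 343 of these the sign was opposite in normal growth, and in 159 the difference had the same sign and was larger under 5FU. The 946 genes were chosen on the difference under 5FU, which is a term of the test between conditions. The choice therefore favours passing that test and a larger size under 5FU, and these 3 counts are partly set by it.

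Across all 18404 genes, the line differences under 5FU and in normal growth had a Pearson r of 0.27, against 0.35 with low glucose and 0.21 with hypoxia. These are correlations across genes, which are not independent replicates, and the conditions share no arrays. The low glucose and hypoxia arrays were taken after a longer exposure than the 12 h of 5FU. No time was given for the normal growth arrays. Hypoxia had fewer arrays per line than normal growth or low glucose. The conditions are thus compared across unlike times and group sizes, and the effect of either was not tested. Of the 946 genes, 62.8% had the same sign in normal growth, 73% in low glucose and 61% under hypoxia, beside 51.3%, 54.6% and 51.5% of all genes. Of the 30 genes with the largest differences under 5FU, 22 kept their sign in all 3 other conditions. The share of all genes that did so was not computed. TM4SF18 differed by 4.82 in normal growth, and by 3.90 and 4.46 in low glucose and hypoxia. MACC1 differed by -2.22, -2.09 and -3.03 in the same order, and the interaction did not pass for either (adjusted p = 0.67 and 0.62). NFIB differed by -2.92, -2.65 and -2.71, and its difference under 5FU was larger than in normal growth (-1.04 ± 0.13, adjusted p = 7.3e-05).

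The mitosis and damage response lists had medians of opposite sign in the 2 conditions, and so had other lists. S phase genes had 0.12 under 5FU and -0.43 in normal growth, histone genes 0.20 and -0.28, and sterol and fatty acid genes 0.14 and -0.35. Immediate early genes kept their sign (0.20 and 0.10), and the medians over all genes were 0.01 and -0.02. The difference was higher under 5FU for 27 of 44 S phase and 24 of 49 histone genes, and lower for 0 of either. Of the 59 mitosis genes 52 had a difference that was higher under 5FU than in normal growth and 0 a lower one, with a median change of 0.64. In normal growth 2 of them were higher and 28 lower in shCDK8 cells (median -0.26). PLK1 differed by -0.15 in normal growth, 0.01 in low glucose and -0.37 under hypoxia, with a change of 1.32 ± 0.08 (adjusted p = 6.6e-08). Of the 43 damage response targets 31 had a lower difference under 5FU than in normal growth and 1 a higher one, with a median change of -0.57. In normal growth 29 of these were higher and 2 lower in shCDK8 cells (median 0.42). TP53I3 differed by 0.99 in normal growth, with a change of -2.44 under 5FU (adjusted p = 2.6e-08), and by 0.15 and 1.01 in low glucose and hypoxia. Of the 120 genes raised by 5FU in shControl cells, 69 had a lower and 7 a higher difference under 5FU than in normal growth. The shCDK8 replicate 1 array of normal growth stood apart from the other 2 (r of 0.989 and 0.991, against 0.998 between the others), and without it the changes were 50 higher and 1 lower for mitosis and 1 higher and 30 lower for the damage response targets. In normal growth itself, without that array, 3 mitosis genes were higher and 20 lower in shCDK8 cells (median -0.15), and 30 damage response targets were higher and 2 lower (median 0.42).

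Several genes with a large difference between the lines in normal growth had a smaller one, or one of opposite sign, under 5FU. TNFSF18, the ligand of the receptor GITR, had 6.26 and 6.45 in shCDK8 cells, against 5.77 and 6.0 in shCDK19 cells under 5FU. This was a difference of 0.47, where normal growth had 5.21, low glucose 1.57 and hypoxia 5.64. The lysozyme gene LYZ had 5.37 and 5.07 in shCDK8 cells, against 5.02 and 5.12 in shCDK19 cells under 5FU. This was a difference of 0.15 with overlapping arrays, where normal growth had 4.13, low glucose 0.09 and hypoxia 4.02. PRKAA2, a catalytic subunit of the AMP-activated kinase, had 7.87 and 8.05 in shCDK8 cells, against 8.79 and 9.01 in shCDK19 cells, a difference of -0.94 under 5FU that passed the test (adjusted p = 0.0304), where normal growth had 3.26. The peptidase DPP4 differed by -0.24 under 5FU and by -3.61 in normal growth, and the glutamate transporter SLC1A3 by -1.0, which passed (adjusted p = 0.0315), and -3.91. DPP4 had 6.54 and 6.90 in shCDK8 cells, against 6.94 and 6.97 in shCDK19 cells, with 9.37 and 9.20 in shControl cells under 5FU, so it was low in both lines.

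**Figure D5:**
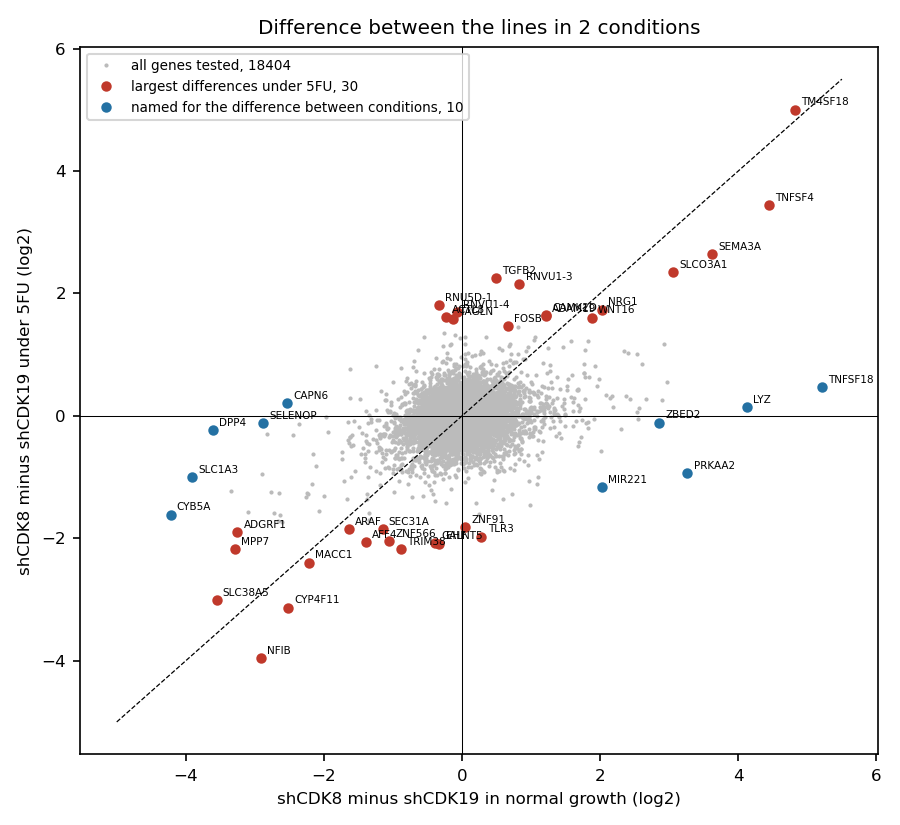
Difference between shCDK8 and shCDK19 cells under 5FU (vertical axis, log2) against the same difference in normal growth (horizontal axis, log2), 1 point per gene, with equal values on the dashed line. TM4SF18, MACC1 and NFIB lie far from 0 on both axes, whereas TNFSF18, LYZ and DPP4 lie near 0 under 5FU. ZNF91 and RNVU1-4 lie near 0 in normal growth but not under 5FU. PRKAA2 and MIR221 have opposite signs on the axes.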

How the data were processed

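Total RNA of each sample was run on its own Affymetrix HuGene array, per the series' design text. The deposited log2 values, 1 per transcript cluster and array, came out of Partek (per the submitters' processing notes, with no version). The log2 scale was judged from the range and the shared floor of 20 before the logarithm. How they were background-corrected and normalized is not given in the sources used here. All arrays share their lowest and highest values, so a change in 1 gene is relative to the rest. The number of arrays limits the precision.

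The platform annotation gives 19158 of the 32321 clusters 1 symbol, 1388 several and 11775 none. The cluster with the highest mean was kept for each gene, which left 18404 genes. The 8 arrays of the 5FU experiment (4 groups of 2, grouped by title) were fitted together with limma 3.58.1 (lmFit, eBayes; R 4.3.3; files read by the data.table package, version 1.17.8). The difference between conditions used the 20 arrays of the knockdown lines in 8 groups. P-values are two-sided and adjusted by the Benjamini-Hochberg method over all genes, with a threshold of 0.05. The fits were tested on simulated data. CDK8 came from a fit of all clusters.

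The members, the 28 gene lists (24 of pathways and 4 of markers, with 766 of 831 genes tested) and the rule for named genes were chosen with earlier results of these data known. The rule takes CDK8, CDK19, CDKN1A, MDM2, FAS, PLK2, PLK1, CCNB1, AURKA and TYMS, then 15 genes in each direction between the lines with replicates that do not overlap. It adds 10 in each direction for the drug, up to 4 members of a list and 5 in each direction for the difference between conditions. Genes named from the drug-responsive sets and lists beyond the rule were chosen after their values were seen. The text gives fewer than the rule allows. The unit of the 5FU concentration could not be checked, so it is not used here. Promoters came from RefSeq (GRCh38.p14) and were found for 14230 of the tested genes. The alternatives were other arrays in the fit, other scalings, a filter on dim genes, other tests, a replicate block and leaving out each array.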

Additional observations from a re-analysis of the deposited data

Results flagged for a closer look

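The difference between shCDK8 and shCDK19 cells differed between 5FU and normal growth for 1676 genes upward and 1745 downward in limma's interaction test, and 43 of the named genes are among them (adjusted p between 1.49e-08 and 0.0421). Each value here is the difference under 5FU minus the difference in normal growth, on the log2 scale. Treatment and experiment cannot be told apart in it. Many of these genes were named for passing this same test or for a large difference under 5FU, which is a term of it. The count of 43 and its split by sign and size are therefore largely set by the choice of the genes. In 17 genes the difference had opposite signs in the 2 conditions. The change was upward for RNU5D-1 (2.15), RNVU1-4 (1.78), ACTL8 (1.85), TAGLN (1.72), CAPN6 (2.75), PLK1 (1.32), CCNB1 (1.16), AURKA (1.11) and TYMS (0.30). It was downward for TLR3 (-2.25), ZNF91 (-1.86), PRKAA2 (-4.20), MIR221 (-3.19), ZBED2 (-2.96), CDKN1A (-1.12), MDM2 (-0.68) and FAS (-1.22). For TYMS, CDKN1A, MDM2, FAS, CAPN6 and ZBED2 the difference under 5FU alone did not pass the test.

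In 12 genes the difference had the same sign in both conditions and was larger under 5FU. These were TGFB2 (1.76), RNVU1-3 (1.32), ADAM19 (0.42) and FOSB (0.81) among the higher genes. Among the lower genes were NFIB (-1.04), CYP4F11 (-0.61), TRIM38 (-1.29), EHF (-1.76), GALNT5 (-1.70), AFF4 (-0.67), ZNF566 (-0.99) and SEC31A (-0.70). In 14 genes the difference had the same sign and was smaller under 5FU. Of those higher in shCDK8 cells, the change was -1.0 for TNFSF4, -0.97 for SEMA3A, -0.70 for SLCO3A1, -0.27 for WNT16, -4.74 for TNFSF18, -3.98 for LYZ, -0.61 for CDK19 and -1.52 for PLK2. Of those lower in shCDK8 cells, it was 1.11 for MPP7, 1.36 for ADGRF1, 3.37 for DPP4, 2.91 for SLC1A3, 2.76 for SELENOP and 2.61 for CYB5A. With groups of 2 or 3 arrays, no test for an outlying value of a single gene was run.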

How the results depend on the processing

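Of the 120 named genes, 56 kept their side of the threshold in every alternative other than leaving out an array. In any alternative, 0 changed direction while past the threshold in the main fit or in that alternative. Changes of direction in genes that passed in neither were not counted. The count of 946 genes that differed between the lines was 492 with the 4 knockdown arrays alone, 2221 with all 35 arrays in 1 fit, 1500 after quantile normalization, 287 with the plain analysis of variance and between 40 and 1479 when 1 array was left out. The 2109 genes that responded to 5FU became 3526 with all 35 arrays, 849 with the plain analysis of variance and between 225 and 2987 with 1 array left out; array medians subtracted split them into 2085 higher and 778 lower. The 28 mitosis genes became 11 with the 4 arrays alone, 6 with the plain analysis of variance and 1 to 34 with 1 array left out. The 9 damage response targets became 19 with all 35 arrays, 16 after quantile normalization, 5 with the plain analysis of variance and 1 to 14 with 1 array left out. The median along the response (-0.194) was 0.0058 with no minimum fold, and lay between -0.234 and -0.132 with 1 array left out. The 3421 genes of the difference between conditions lay between 2447 and 4105 with 1 array left out. Deviations of same-numbered arrays correlated between -0.31 and 0.39. The values were 0.13 (shCDK8 with shCDK19), 0.39 (shCDK8 with DMSO) and 0.20 (shCDK19 with DMSO). Those of shControl 5FU with shCDK8, shCDK19 and DMSO were -0.26, -0.14 and -0.31. Whether replicate numbers pair the samples was not tested. With the replicate block, 479 genes differed between the lines, 17 mitosis genes and 5 damage response targets passed, 1517 genes responded and 2671 differed between conditions. With the shControl 5FU numbers crossed, chosen after seeing the data, these counts were 1271 for the lines and 2824 for the drug. Where the cause of a move is not the smaller number of arrays, it was not tested. With 2 arrays per group, single arrays limit every count.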
